A study of Mus musculus with 2 samples.

Results

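The 10 genes described here, *Olig1*, *Olig2*, *Sox10*, *Nkx2-2*, *Nkx6-2*, *Myrf*, *Tcf7l2*, *Sox6*, *Zfp488* and *Hes5*, encode transcription factors of the oligodendrocyte lineage. They were chosen by name, with earlier results of these data known, and are 10 of the 28692 genes counted in each library. Their unique molecular identifiers (UMIs, each standing for 1 captured transcript) were summed over cells along the lineage and compared with astrocytes and neurons. The cells came from the ventral parafacial region, a strip of brainstem at the ventral surface beside the facial nucleus that holds neurons driving breathing, and were captured on the 10x platform with version 2 chemistry. The untreated library pooled 8 C57BL/6J pups (4 male, 4 female) at 10 days of age and is labelled WT and batch 1. The second library pooled 8 pups of the same strain, sexes and age that had received 4OH-tamoxifen, the drug used to switch on inducible Cre lines, at 0.2 mg/day for 3 days, and is labelled batch 2. None of these pups carried a Cre or reporter allele. With 1 library per condition, the drug, the batch and the set of pooled mice cannot be told apart, no test over animals was possible, and every interval below covers counting error only.

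Oligodendrocyte precursors divide, leave the cell cycle as committed precursors, pass through a premyelinating stage and then wrap axons with myelin. OLIG1 and OLIG2 are basic helix-loop-helix factors that mark the lineage from its start, and SOX10 is a high-mobility-group factor that drives lineage and myelin genes throughout. HES5, a repressor switched on by Notch, and SOX6, which competes with SOX10, hold precursors back. NKX2.2 acts around the onset of differentiation, TCF7L2 is a nuclear partner of β-catenin in premyelinating cells, ZFP488 promotes differentiation, and MYRF, cut free from a membrane, and NKX6.2 serve the myelinating stage.

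Of the 10 genes, 7 had an entry in the RefSeq promoter table, with 13 windows of the bases before a transcription start. *Olig1*, *Sox10* and *Myrf* had none. A window of each of 4 genes is shown, because their transcripts peaked at different points of the order described below: *Hes5* first, *Nkx2-2* and *Tcf7l2* in the middle, *Nkx6-2* near the end. Capitals mark matches on either strand to the E-box CANNTG (the letters bound by helix-loop-helix factors), to TGGGAA (RBPJ, the DNA-binding partner of Notch), to ACAATG or ACAAAG (SOX factors) and to ATCAAAG (TCF/LEF factors). The build is GRCm38.p6, each sequence reads 5′ to 3′ on the gene's strand, and it ends at the base before the start.
*Hes5*, plus strand, chr4:154960673-154960922: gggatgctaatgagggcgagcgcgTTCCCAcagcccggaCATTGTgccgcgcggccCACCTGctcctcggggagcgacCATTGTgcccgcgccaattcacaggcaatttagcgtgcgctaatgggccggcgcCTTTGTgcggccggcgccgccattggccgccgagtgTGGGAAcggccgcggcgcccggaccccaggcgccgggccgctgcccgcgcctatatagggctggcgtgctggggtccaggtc
*Nkx2-2*, minus strand, chr2:147186403-147186652: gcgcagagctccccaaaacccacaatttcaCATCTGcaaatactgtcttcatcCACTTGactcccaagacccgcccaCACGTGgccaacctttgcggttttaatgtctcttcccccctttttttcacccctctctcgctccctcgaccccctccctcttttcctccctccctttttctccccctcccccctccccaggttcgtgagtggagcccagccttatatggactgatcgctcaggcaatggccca
*Nkx6-2*, minus strand, chr7:139582798-139583047: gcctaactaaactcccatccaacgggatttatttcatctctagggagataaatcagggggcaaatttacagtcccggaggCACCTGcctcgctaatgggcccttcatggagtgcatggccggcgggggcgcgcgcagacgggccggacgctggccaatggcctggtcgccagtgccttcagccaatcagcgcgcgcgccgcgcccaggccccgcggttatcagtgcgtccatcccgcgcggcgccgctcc
*Tcf7l2*, upstream start, plus strand, chr19:55741560-55741809: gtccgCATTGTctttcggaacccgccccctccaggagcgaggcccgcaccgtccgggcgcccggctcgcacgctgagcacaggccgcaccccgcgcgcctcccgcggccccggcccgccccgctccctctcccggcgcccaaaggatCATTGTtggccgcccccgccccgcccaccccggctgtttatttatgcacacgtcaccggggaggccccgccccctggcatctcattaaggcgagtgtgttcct
The *Hes5* window held both orientations of the RBPJ letters, 226 to 221 and 82 to 77 bases before the start, and it alone of the 13 windows held them. It also held 1 E-box, ACAATG matches at 211 to 206 and 172 to 167 bases, and 1 ACAAAG match at 118 to 113 bases. The *Nkx2-2* window held 3 E-boxes between 220 and 168 bases before the start, and the *Nkx6-2* window held 1 at 170 to 165. The *Tcf7l2* window shown, the upstream of 2, had no E-box and held ACAATG at 245 to 240 and 103 to 98 bases, and its other window (not shown) held ACAAAG at 14 to 9. No capitals in these windows mark overlapping matches. Such letters are common: the E-box was in 66.2% of all 32851 windows of this length, TGGGAA in 21.6%, ACAAAG in 16.5%, ACAATG in 10.7% and ATCAAAG in 3.21%, so a match is a description of sequence and not of binding. A noncoding exon of *Gm20421* on the opposite strand lies in part of the *Hes5* window. The *Nkx2-2* window lies within a longer noncoding *Nkx2-2* transcript and the antisense *Nkx2-2os*.

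Cells were placed by the latest of 6 markers they carried with at least 2 UMIs. In order these were *Pdgfra* (the growth factor receptor of precursors), *Gpr17* (a receptor of committed precursors), *Enpp6* (an enzyme of newly formed oligodendrocytes), *Mog* and *Opalin* (myelin membrane proteins) and *Klk6* (a protease of mature oligodendrocytes). The 6 gates held 172, 300, 182, 191, 183 and 79 cells of the untreated library and 468, 986, 498, 681, 472 and 254 of the 4OH-tamoxifen library. *Aqp4* marked 705 and 1573 astrocytes, *Snap25* 164 and 489 neurons, and *Csf1r* 305 and 454 microglia, the gate against which free RNA was judged. Cells that carried markers of more than 1 class were left out (15.2% and 10.8% of the kept cells), most often with astrocyte and lineage markers together. The 2 libraries shared 40 barcodes, of which 32 were kept in both and 3 fell in the same gate.

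Marker lists that the gates did not use peaked where their names place them, with 1 exception in the lineage. The precursor list was highest in the *Pdgfra* gate (4875 and 3953 UMIs per 1000000 UMIs of the gate, CPM) and the oligodendrocyte list in the *Opalin* gate, but the committed-precursor list peaked in the *Enpp6* gate (6703 and 5105) and not in the *Gpr17* gate. The *Klk6* gate had more *Enpp6* than the *Opalin* gate (273 and 256 against 99.1 and 66.6 CPM). The order of gates is one of markers and was not shown to be one of time.

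Depth moved with the order. Median UMIs per cell were 3063 and 1824 in the *Pdgfra* gate and 11451 and 7335 in the *Opalin* gate, and the share of UMIs from 12 myelin genes went from 1.64% and 2.17% to 12.2% and 10.6%. Levels are given in CPM, the untreated library first. On this scale the median gene of all those tested was lower in the *Mog*, *Opalin* and *Klk6* gates combined than in the *Pdgfra* gate (log2 ratio -0.43 and -0.39), whereas in UMIs per cell it was 2.2-fold and 2.55-fold higher. Over the whole course both scales are given where their directions differ, and a step described without a scale is one in CPM. CPM from 3′ tags are compared for 1 gene across gates, never between genes.

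Over the whole course, 3 of the 10 genes were higher in the oligodendrocyte gates (*Mog*, *Opalin* and *Klk6* combined) than in the *Pdgfra* gate and 4 were lower. A change was counted at 2-fold or more in the same direction in both libraries, with both 95% intervals excluding 1. By the same rule 8.35% of 10223 genes were higher and 19.5% lower. *Myrf*, *Nkx6-2* and *Tcf7l2* were the higher genes, and *Hes5*, *Sox6*, *Olig2* and *Nkx2-2* the lower. *Tcf7l2* was not counted after thinning, at a gate of 3 UMIs or at 3-fold, and reversed in cells with exactly 1 lineage marker (log2 ratio -0.546 and -0.124). *Hes5* was not counted after thinning, nor *Nkx2-2* at a gate of 1 UMI, with the mean of each cell's CPM or at 3-fold, nor *Olig2* at 3-fold. Per cell, *Sox10* and *Zfp488* joined the higher genes, and *Olig2* and *Nkx2-2* were no longer lower, where 49.6% of all genes were higher and 4.85% lower. The median log2 CPM ratio was -0.54 over the 10 genes and -0.42 over all genes. In this comparison all 8 cycling genes and 5 of 6 astrocyte markers were also lower in CPM, with none higher. Their part in the result was not tested.

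**Figure D1:**
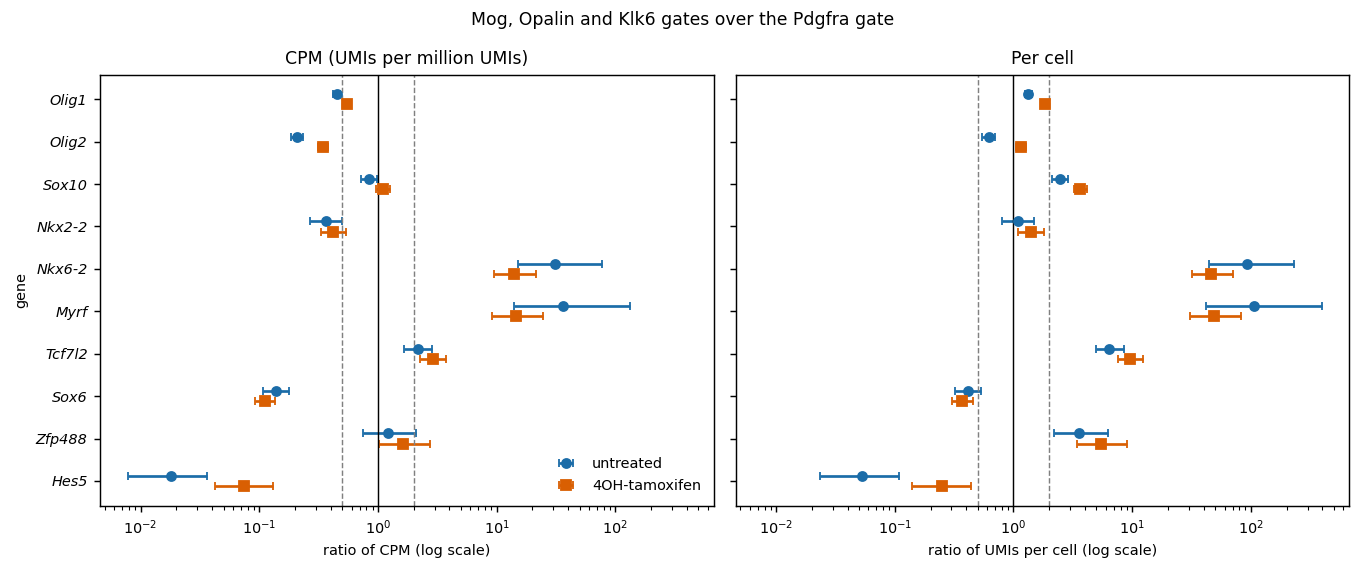
Ratio of each gene's level in the *Mog*, *Opalin* and *Klk6* gates combined to its level in the *Pdgfra* gate, on log axes, in CPM (left) and in UMIs per cell (right). Circles are the untreated library, squares the 4OH-tamoxifen library, bars are 95% counting intervals, and dashed lines mark 2-fold. *Myrf* and *Nkx6-2* lie far to the right and *Hes5* and *Sox6* to the left on both scales, while *Olig1*, *Olig2*, *Sox10*, *Nkx2-2* and *Zfp488* change side or cross a dashed line between the scales.

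*Olig1* (chr16:91269772-91271933, plus strand; the lincRNA *Gm15966* lies on the other strand) was detected in at least 88.8% of the cells of every lineage gate of both libraries. In the *Pdgfra* gate 99.4% and 96.4% of cells had a UMI, and in the *Opalin* gate 99.5% and 98.3%, against 34.4% and 32.4% of microglia. After thinning to 2000 UMIs the *Klk6* gate had the lowest share, 73.4% and 64.9%. Its level from the *Pdgfra* to the *Klk6* gate was 2320, 1807, 939, 818, 1397 and 628 CPM in the untreated library. In the 4OH-tamoxifen library it was 1845, 1158, 708, 875, 1418 and 558. The level was thus highest at the start, dipped in the *Enpp6* and *Mog* gates, and came back in the *Opalin* gate before the lowest value in the *Klk6* gate. The *Opalin* gate exceeded the *Mog* gate 1.71-fold (95% interval 1.59 to 1.83) and 1.62-fold (1.55 to 1.69), which is under the 2-fold set for a change. The *Klk6* gate was lower than the *Opalin* gate, at 0.449 (0.411 to 0.491) and 0.393 (0.367 to 0.421) of its level. Over the whole course the ratio was 0.449 (0.422 to 0.478) and 0.548 (0.520 to 0.578) in CPM and 1.33 (1.25 to 1.42) and 1.83 (1.74 to 1.93) per cell. Counted per cell, *Olig1* had its maximum in the *Opalin* gate, with 15.1 and 10 UMIs against 7.44 and 3.59 in the *Pdgfra* gate.

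*Olig2* (chr16:91225457-91228677, plus strand), which lies 41.1 kb from *Olig1*, fell in CPM along the order in both libraries. Untreated levels were 785, 645, 478, 238, 157 and 66.1 CPM. Those of the 4OH-tamoxifen library were 585, 500.4, 389, 231, 222 and 89.8, where the *Mog* and *Opalin* gates could not be told apart (ratio 0.964, 0.874 to 1.06). Over the whole course the ratio was 0.208 (0.184 to 0.235) and 0.343 (0.311 to 0.378). In UMIs per cell the same ratio was 0.616 (0.546 to 0.697) in the untreated library and 1.15 (1.04 to 1.26) in the 4OH-tamoxifen library, so the fall in CPM was not a fall per cell in both. From the *Gpr17* to the *Enpp6* gate *Olig2* went from 2.37 and 1.15 to 2.75 and 1.5 UMIs per cell (1.16-fold, 1.04 to 1.31, and 1.30-fold, 1.19 to 1.43), where its CPM were 0.742 and 0.778 of the level before. The step into the *Klk6* gate was a fall on both scales, from 1.7 and 1.57 to 0.797 and 0.626 UMIs per cell.

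*Sox10* (chr15:79154908-79165240, minus strand) varied least of the 10 in CPM, with its highest gate 2.49-fold and 2.24-fold above its lowest. Per cell it went from 1.13 and 0.513 UMIs in the *Pdgfra* gate to 3.13 and 2.08 in the *Mog* gate. The levels were 352, 388, 435, 433, 253 and 175 CPM, and 264, 382, 492, 351, 251 and 220 CPM in the 4OH-tamoxifen library. The *Enpp6* gate was highest in both. It did not differ from the *Mog* gate in the untreated library (1.01-fold, 0.889 to 1.14). Oligodendrocyte gates over the *Pdgfra* gate gave 0.834 (0.716 to 0.975) and 1.10 (0.960 to 1.26) in CPM, and 2.48 (2.13 to 2.90) and 3.67 (3.21 to 4.20) per cell.

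The balance of the paired *Olig* genes shifted within the lineage. A ratio of UMIs in the same cells needs no library total. Each *Olig2* UMI was matched by 2.96 (2.65 to 3.3) and 3.16 (2.86 to 3.49) *Olig1* UMIs in the *Pdgfra* gate. The ratio was lowest in the *Enpp6* gate, at 1.96 (1.76 to 2.19) and 1.82 (1.66 to 1.99). It was 3.44 and 3.79 in the *Mog* gate and then 8.88 (7.9 to 10) and 6.38 (5.9 to 6.9) in the *Opalin* gate. The *Opalin* and *Klk6* gates overlapped (9.51, 7.33 to 12.5, and 6.21, 5.25 to 7.39 in the latter). The microglia gate, with few UMIs, had 11.4 (6.46 to 21.9) and 7.68 (5.05 to 12.2). After the microglia CPM of each gene was subtracted, the *Enpp6* gate stood at 1.76 and 1.48 and the *Opalin* gate at 8.71 and 6.24, and the order of these gates did not change.

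**Figure D2:**
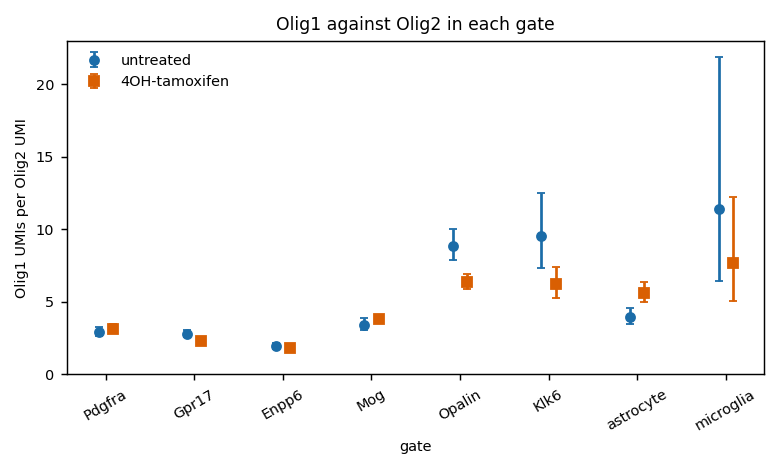
*Olig1* UMIs per *Olig2* UMI (linear axis) in each gate, with 95% counting intervals, for the untreated and the 4OH-tamoxifen library. The ratio is lowest in the *Enpp6* gate, at 1.96 and 1.82, and is higher in the *Opalin* gate, at 8.88 and 6.38, than in the 4 gates before it.

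*Hes5* (chr4:154960923-154962371, plus strand, with *Gm20421* on the other strand), the Notch effector, was highest in the *Pdgfra* gate, as were *Olig1* and *Olig2*. It was at 116 CPM (89.4 to 148) and 35.2 CPM (24.1 to 49.6) in the *Pdgfra* gate and 49.9 and 24.2 CPM in the *Gpr17* gate. In the 4OH-tamoxifen library its ratio between these gates was 1.45 (0.908 to 2.28), so they were not told apart. From the *Enpp6* gate on it was between 1.01 and 5.73 CPM in the untreated library and between 1.69 and 9.37 in the 4OH-tamoxifen library, against 4.63 and 6.85 in microglia. *Hes5* was therefore at about background after the *Gpr17* gate. The oligodendrocyte gates had 0.0180 (0.00787 to 0.0363) and 0.0746 (0.0420 to 0.131) of the *Pdgfra* level, and the step from the *Gpr17* to the *Enpp6* gate was 0.115 and 0.387. Even at its height few cells had a UMI, 20.9% and 6.20% of the *Pdgfra* gate, against 1.97% and 1.76% of microglia with deeper counts (median 4073 and 2362 UMIs per cell).

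*Sox6* (chr7:115470872-116038796, minus strand; *Sox6os* and *Gm45025* are antisense) persisted for longer and then dropped. Its levels were 225, 257, 258, 83.2, 8.60 and 2.097 CPM, and 219, 311, 192, 42.5, 11.4 and 6.78 in the 4OH-tamoxifen library. In the untreated library the *Gpr17* and *Enpp6* gates were level. The *Mog* gate had 0.323 and 0.222 of the *Enpp6* level and the *Opalin* gate 0.103 and 0.268 of the *Mog* level. Over the whole course the ratio was 0.138 (0.107 to 0.178) and 0.111 (0.0912 to 0.135), and it was 0.410 and 0.371 per cell, so that *Sox6* was lower on both scales. In the *Klk6* gate it was no higher than in microglia (5.40 and 11.1 CPM).

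*Nkx2-2* (chr2:147177546-147194243, minus strand; *Nkx2-2os* and *6430503K07Rik* overlap it) was a gene of the middle gates. It went from 109 (83 to 140) and 90.1 (71.7 to 112) CPM in the *Pdgfra* gate to 289.7 and 290.3 in the *Gpr17* gate, a rise of 2.66-fold and 3.22-fold. In the *Enpp6* gate the untreated library stayed level at 295 CPM, while the 4OH-tamoxifen library had 174 CPM, though its UMIs per cell were 0.668 and 0.673 in these gates. The *Mog* gate had 74.5 and 50.7 CPM and the *Opalin* gate 19.7 and 22.5, both counted falls. The *Klk6* gate had 30.4 and 36.7 CPM. Its whole-course ratio depended on the scale: 0.364 (0.270 to 0.498) and 0.418 (0.328 to 0.539) in CPM, but 1.08 (0.802 to 1.48) and 1.40 (1.10 to 1.80) per cell.

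*Tcf7l2* (chr19:55741820-55933654, plus strand) peaked in the *Enpp6* and *Mog* gates. Its CPM from the *Pdgfra* gate on were 103, 176, 653, 660.4, 22.8 and 5.24 in the untreated library. In the 4OH-tamoxifen library they were 78.0, 294, 1067, 469, 40.8 and 15.2. The rise into the *Enpp6* gate was 3.71-fold and 3.63-fold, and the *Opalin* gate had 0.0345 and 0.0870 of the *Mog* level. The highest gate exceeded the lowest 126-fold and 70-fold. In the *Enpp6* gate 81.3% and 84.3% of cells had a UMI, and in the deeper *Opalin* gate 15.3% and 20.1%. With each cell thinned to 2000 UMIs the *Opalin* share was 4.396% and 7.89%, beside 2.53% and 2.24% of neurons and 9.36% and 11.8% of microglia, which for this gene stood above neurons and so were not at background alone. The libraries differed in where the fall began: the untreated *Mog* level was 1.01 times the *Enpp6* level, and with 4OH-tamoxifen it was 0.440 times. The higher whole-course value of *Tcf7l2* (2.16, 1.65 to 2.87, and 2.88, 2.28 to 3.71) came in CPM from the *Mog* gate alone, since the *Opalin* and *Klk6* gates were below the *Pdgfra* gate.

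*Zfp488* (chr14:33967070-33978764, minus strand) was highest in the *Enpp6* gate of both libraries. It was at 32.6, 43.6, 84.0, 76.0, 26.3 and 13.6 CPM, and at 20.9, 48.9, 90.1, 46.5, 29.7 and 12.4 CPM in the 4OH-tamoxifen library. No step reached 2-fold in both libraries. The nearest were the rise from the *Gpr17* to the *Enpp6* gate, of 1.93-fold (1.34 to 2.80) and 1.84-fold (1.44 to 2.36), and the *Klk6* over *Opalin* ratio of 0.518 (0.259 to 0.965) and 0.418 (0.251 to 0.669). Outside the lineage it was almost absent, with 0.801 to 3.59 CPM in astrocytes, neurons and microglia.

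*Myrf* (chr19:10208272-10240748, minus strand) rose, like *Nkx2-2*, from the first step. Only 4 and 18 UMIs were found in the *Pdgfra* gate, at 7.25 (1.98 to 18.6) and 19.8 (11.7 to 31.3) CPM, against 2.31 and 12 CPM in microglia. The *Gpr17* gate had 60.8 and 121 CPM and the *Enpp6* gate 248 and 339, rises of 8.39-fold and 6.10-fold and then of 4.08-fold and 2.81-fold. The gene then changed less, with 286 and 312 CPM in the *Mog* gate, 272 and 282 in the *Opalin* gate and 203 and 235 in the *Klk6* gate, and no later step was counted as a change. Per cell it was 1.45-fold (1.24 to 1.70) and 1.42-fold (1.29 to 1.56) higher in the *Mog* than in the *Enpp6* gate. Cells with a UMI went from 2.33% and 3.63% in the *Pdgfra* gate to 66.5% and 62.9% in the *Enpp6* gate and 86.9% and 82.2% in the *Opalin* gate, against 0.984% and 3.08% of microglia. At 2000 UMIs per cell the shares were 35.0% and 44.2% in the *Enpp6* gate and 47.8% and 45.2% in the *Opalin* gate, so in the 4OH-tamoxifen library the later gain was not seen at equal depth. The whole-course ratio was 36.0 (14.0 to 132) and 14.5 (9.15 to 24.5).

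*Nkx6-2* (chr7:139579376-139582797, minus strand; *Inpp5a* overlaps it on the other strand) rose later and for longer. It was at 12.7, 19.98, 66.8, 178, 558 and 365 CPM in the untreated library and at 28.6, 44.9, 99.4, 307, 526 and 360.2 CPM in the 4OH-tamoxifen library. The rise was 3.34-fold and 2.21-fold into the *Enpp6* gate and 2.66-fold and 3.08-fold into the *Mog* gate. The maximum was in the *Opalin* gate, where 91.8% and 86.9% of cells had a UMI, against 3.93% and 6.17% of microglia. Microglia had 10.0 and 25.7 CPM, so the *Pdgfra* level was near background. It was 31.0-fold (15.02 to 77.3) and 13.9-fold (9.47 to 21.3) higher in the oligodendrocyte gates than in the *Pdgfra* gate. In CPM *Myrf* thus had no counted change after the *Enpp6* gate, whereas *Nkx6-2* there was at 66.8 and 99.4 CPM and still far below its own maximum.

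**Figure D3:**
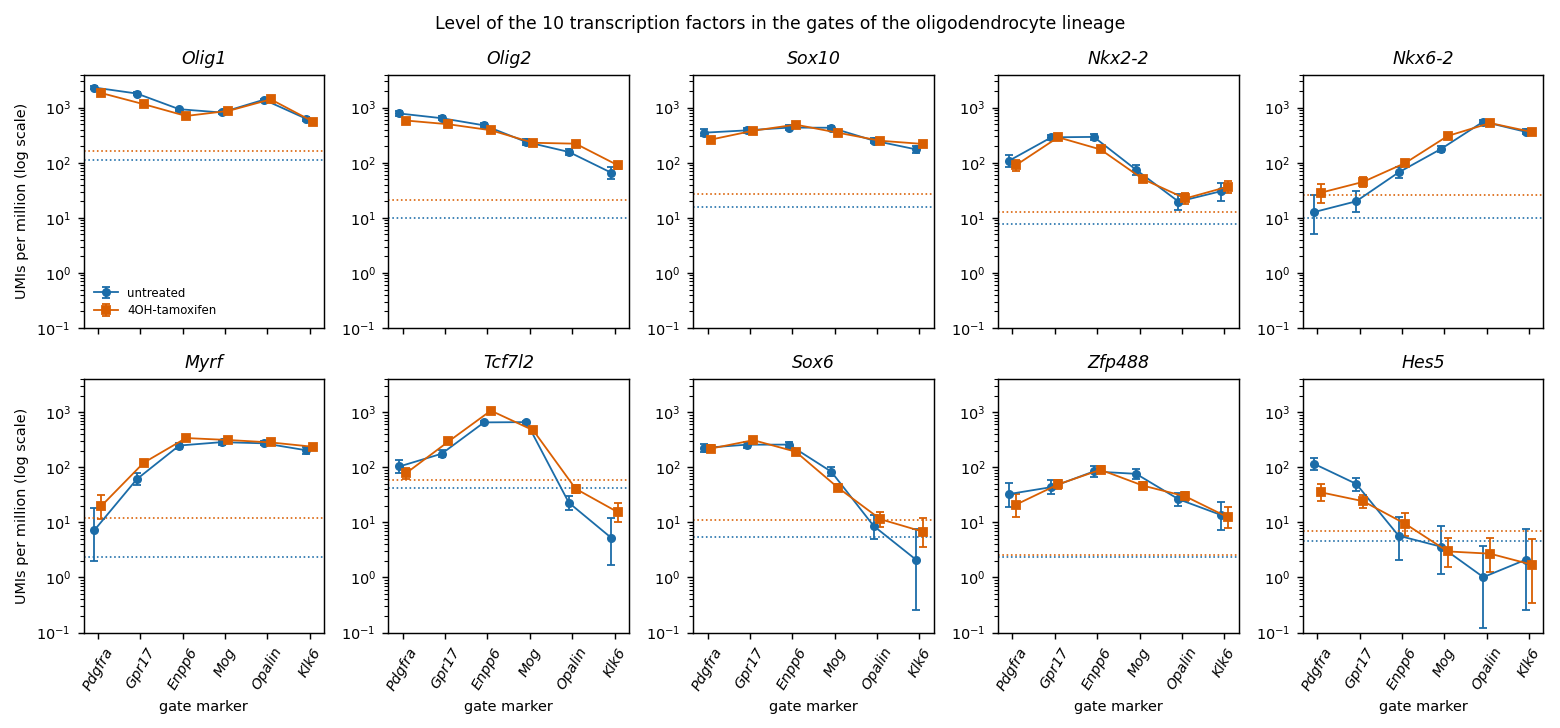
Level of each of the 10 genes (CPM, log axis) in the 6 lineage gates in marker order, with 95% counting intervals, for the untreated and the 4OH-tamoxifen library. Dotted lines give the level in microglia of each library. *Hes5* is near that level from the *Enpp6* gate on, *Tcf7l2* and *Sox6* are below it in the *Klk6* gate, and *Nkx6-2* peaks in the *Opalin* gate.

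Over the 5 steps between neighbouring gates, 15 of the 46 gene and step pairs with enough UMIs were counted as changes (6 rises and 9 falls, of 50 pairs in all), beside 5.94% of the 43628 pairs over all genes. The rises lay in the first 3 steps. *Nkx2-2* and *Myrf* rose into the *Gpr17* gate, where 1.09% of all genes did. *Nkx6-2*, *Myrf* and *Tcf7l2* rose into the *Enpp6* gate (2.82% of all genes) and *Nkx6-2* into the *Mog* gate (3.22%). After thinning, which also changed the cells of each gate, the rises of *Nkx6-2* and *Myrf* into the *Enpp6* gate were not counted. That of *Nkx6-2* was also lost with a higher minimum of genes and at gates of 1 or 3 UMIs. A gate of 1 UMI lost the rises of *Nkx2-2* and *Myrf* into the *Gpr17* gate too. With exactly 1 lineage marker, only these *Gpr17* rises and that of *Tcf7l2* into the *Enpp6* gate were still counted of the 15 changes. Few or none of those cells lay in the *Opalin* and *Klk6* gates. A rise of *Tcf7l2* into the *Gpr17* gate was gained after thinning, at a gate of 3 UMIs and with exactly 1 lineage marker. That of *Zfp488* into it was gained after thinning. The falls began at the second step. *Hes5* fell into the *Enpp6* gate (7.25% of all genes), *Nkx2-2* and *Sox6* into the *Mog* gate (3.32%), *Nkx2-2*, *Tcf7l2* and *Sox6* into the *Opalin* gate (4.63%), and *Olig1*, *Olig2* and *Tcf7l2* into the *Klk6* gate (2.81%). After thinning, the falls of *Nkx2-2* into the *Opalin* gate and of *Olig2* and *Tcf7l2* into the *Klk6* gate were not counted. *Olig2*, *Tcf7l2* and *Zfp488* were then counted as falling into the *Mog* gate. A gate of 1 UMI lost the falls of *Hes5* into the *Enpp6* gate and *Sox6* into the *Mog* gate. It also lost those of *Olig1* and *Tcf7l2* into the *Klk6* gate. A gate of 3 UMIs lost those of *Hes5* into the *Enpp6* and *Nkx2-2* into the *Opalin* gate. The *Olig1* fall was also lost at a mitochondrial limit of 10%. Markers of other cells moved with the step into the *Klk6* gate: the summed astrocyte list was at 3485 and 4141 CPM in the *Klk6* gate and 955 and 1127 in the *Opalin* gate, and the fibroblast list at 5442 and 3166 against 1737 and 787. Each list has a gene, *S100b* or *Apod*, that mature oligodendrocytes also express, and the part of these markers in the falls was not tested. Per cell 14 pairs were counted, 12 of them shared with the CPM scale, beside 6.96% of such pairs over all genes. The falls of *Hes5* into the *Enpp6* gate, *Nkx2-2* into the *Opalin* gate and *Olig1* into the *Klk6* gate were lost, and rises of *Zfp488* into the *Enpp6* gate and *Nkx6-2* into the *Opalin* gate were gained.

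Within a gate, cells that also passed an earlier marker differed from cells with fewer than 2 UMIs of it. The latter, called cells without the marker here, may still hold 1 UMI. In the *Gpr17* gate, cells without *Pdgfra* had 98.2 and 141 CPM of *Myrf* and cells that also passed it had 10.6 and 11.3. That is a ratio of 9.23 (3.75 to 29.4) and 12.4 (4.8 to 46.0), with *Hes5* going the other way (0.208, 0.0997 to 0.401, and 0.449, 0.245 to 0.861). *Myrf* UMIs in the *Gpr17* gate thus came almost wholly from the cells with fewer than 2 *Pdgfra* UMIs. In the *Mog* gate, cells without *Enpp6* (67 and 339) had 140 and 209 CPM of *Tcf7l2*, and those with it (124 and 342) had 783 and 692, a ratio of 0.179 (0.125 to 0.248) and 0.302 (0.270 to 0.338). *Sox6* was lower in the same cells (0.493 and 0.400), and *Olig1* was slightly higher (1.27 in both). In the untreated library fewer of the *Mog* gate cells were under 2 UMIs of *Enpp6*, and its *Tcf7l2* level in that gate was higher. Within the *Pdgfra* gate, neither a single *Gpr17* UMI nor expression of 8 cycling genes separated any of the 10 genes in both libraries.

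Detection in single cells was compared after thinning each cell to 2000 UMIs. In the *Mog* gate *Tcf7l2* was found in 34.8% (21.4 to 50.2) of cells with *Nkx6-2* and 58.7% (50 to 67) of cells without it in the untreated library. In the 4OH-tamoxifen library the shares were 30.4% (24.9 to 36.4) and 51.7% (46.6 to 56.8). The untreated intervals overlap slightly, and the difference itself was not tested. In the *Enpp6* gate the values lay the other way. The shares were 85% (62.1 to 96.8) and 82.4% (73 to 89.6) of cells with *Nkx6-2*, the untreated library first. They were 56.7% (48.6 to 64.6) and 78.6% (74 to 82.7) of cells without it. These intervals overlap in both libraries, the untreated one rests on 20 cells with *Nkx6-2*, and the difference was not tested. The median thinned cell held 3 and 3 of the 10 genes in the *Pdgfra* gate, 4 and 4 in the *Enpp6* gate, and 2 and 2 in the *Klk6* gate. At least 5 were detected in 34.5% and 35.8% of *Enpp6* cells.

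Of 72 other regulators of the lineage, 57 had enough UMIs, and 5 were higher and 21 lower in the oligodendrocyte gates, beside 8.35% and 19.5% of all genes. Their median log2 CPM ratio was -0.74, beside -0.42 for all genes. The higher genes were *St18* (33.4-fold and 46.9-fold, from 1 UMI per library in the *Pdgfra* gate, with intervals from 5.94 and 8.38 up), *Smad7* (14.1-fold and 14.9-fold), *Nkd1*, *Zeb2* and *Zfp536*. *Smad7* and *Nkd1* encode inhibitors of the bone morphogenetic protein and Wnt pathways, and *Zeb2* a repressor that acts with SMAD proteins. Of the helix-loop-helix genes 6 of 10 were lower, among them *Id2*, an inhibitor of differentiation (0.0753 and 0.119). The Notch list had 4 of 7 lower, with *Dll3* at 0.0201 and 0.0238, *Dll1* at 0.0426 and 0.0865 and the receptor gene *Notch1* at 0.266 and 0.285, in the same direction as *Hes5*. *Hes1*, the other Notch-responsive repressor, was at 0.0711 and 0.0959. The SOX list had 4 of 8 lower, including *Sox11* and *Sox5*, the partner of *Sox6* (0.0652 and 0.0492). None of 7 chromatin genes and none of 4 nuclear receptors were counted. From the *Gpr17* to the *Enpp6* gate, 15 of 56 regulators tested fell and 4 rose, beside 7.25% and 2.82% of all genes. From the *Pdgfra* to the *Gpr17* gate 1 of 54 fell and 1 rose, beside 0.555% and 1.09%. Of 12 myelin genes, 11 were higher, with *Mag* up 54.8-fold and 32.5-fold.

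For each gene the 3 genes with the most similar CPM profile over 11 gates in both libraries were listed by Pearson's r of log2(CPM + 10). Gate markers and the 10 genes themselves were left out of these lists. The r values are a description over 22 points that share libraries and depth. *Olig1* was nearest to *Sox8* (0.940), the SOX gene related to *Sox10*, and *Olig2* to *Scrg1* (0.962) and *Sox8* (0.948). *Nkx6-2* was nearest to *Padi2* (0.952), *Myrf* to *Map6d1* (0.985) and *Plxnb3* (0.976), and *Tcf7l2* to *Itpr2* (0.963), a calcium release channel of newly formed oligodendrocytes. *Hes5* was nearest to *Wnt7b* (0.950), *Fabp7* (0.948) and *Ncan* (0.946). The nearest genes to *Sox10*, *Nkx2-2*, *Sox6* and *Zfp488* were *Prkcq* (0.975), *Rnf144a* (0.960), *A930009A15Rik* (0.974) and *Chst3* (0.977). Among the 10 genes the closest pairs were *Olig1* with *Olig2* (0.941), *Sox10* with *Zfp488* (0.930) and *Nkx2-2* with *Sox6* (0.907), and the most unlike were *Myrf* and *Hes5* (-0.315).

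Astrocytes carried 6 of the 8 genes with enough UMIs above the level of microglia, beside 22.7% of all genes higher in that comparison. The 6 precursor markers moved with them, at a summed 1205 and 1152 CPM in astrocytes, 78.7 and 192 in microglia and 4875 and 3953 in the *Pdgfra* gate, and their part in the result was not tested. *Hes5* was 24.1-fold and 11.4-fold higher, at 112 and 78.3 CPM, and in the untreated library this was close to the 116 CPM of the *Pdgfra* gate. *Olig2* had 131 and 100.4 CPM in astrocytes and 10.0 and 21.4 in microglia (13.1-fold and 4.69-fold). *Olig1* had 521 and 565 CPM against 114 and 165 (4.56-fold and 3.43-fold). *Nkx2-2*, *Nkx6-2* and *Sox6* were also higher, by 3.03-fold to 9.50-fold. *Sox10* (1.14-fold and 1.65-fold) and *Tcf7l2* (1.73-fold and 1.70-fold) were not counted, and *Myrf* and *Zfp488* had too few UMIs. Set beside neurons, in which it was lower than in microglia, *Tcf7l2* had 72.0 and 99.2 CPM in astrocytes and 5.61 and 9.27 in neurons. The 6 genes thus included early ones such as *Hes5* and *Sox6* and the late *Nkx6-2*. Astrocytes with *Gfap* had less *Olig1* (0.594 and 0.705) and *Olig2* (0.643 and 0.554) than those without. Astrocyte and lineage markers together were found in 198 and 439 cells, which were left out, and the part of further such cells in these values was not tested.

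Of the 6 genes with enough UMIs, none was counted as higher in neurons than in microglia, beside 38.1% of all genes, and *Tcf7l2* was lower (5.61 and 9.27 CPM against 41.7 and 58.3), beside 13.5%. An *Olig1* UMI was found in 40.9% and 38.7% of neurons and in 34.4% and 32.4% of microglia. Median depths were 6604 and 4434 UMIs in neurons against 4073 and 2362 in microglia, and the part of free RNA was not tested. *Olig2* in neurons was 2.55-fold (1.30 to 5.30) above microglia in the untreated library only (1.05, 0.644 to 1.75, in the other). In UMIs per cell 2 genes, *Olig2* and *Sox6*, were counted as higher than in microglia, as were 60.7% of all genes in these deeper cells.

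**Figure D4:**
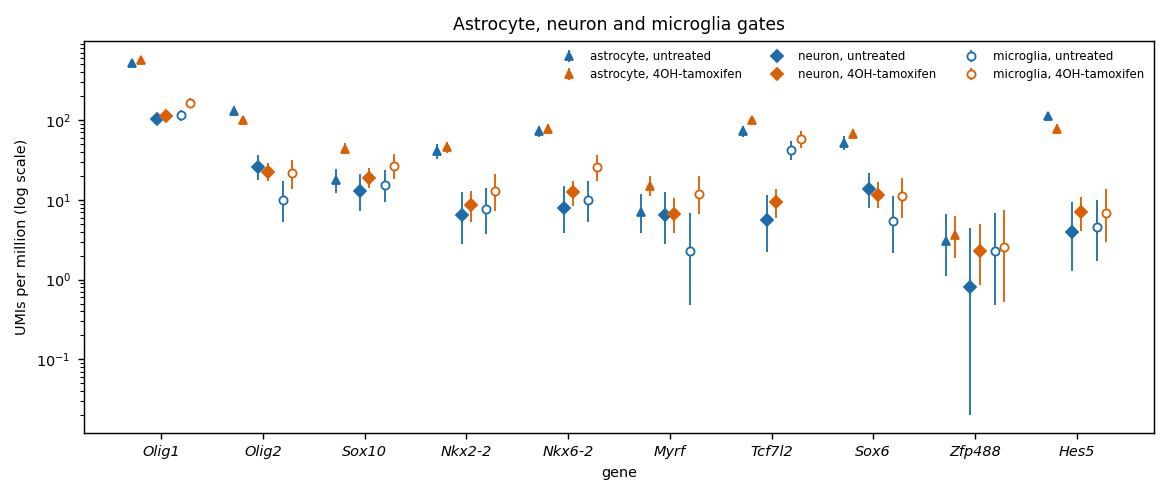
Level of each of the 10 genes (CPM, log axis) in astrocytes (triangles), neurons (diamonds) and microglia (open circles), with 95% counting intervals, for both libraries. The astrocyte values of *Hes5*, 112 and 78.3, and of *Olig1* and *Olig2* stand above those of microglia, and *Tcf7l2* is lower in neurons than in microglia.

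The drug-treated and untreated libraries were compared gate by gate, a comparison in which batch and mice cannot be told apart from the drug. Of 74 gene and gate pairs with enough UMIs (of 80), 6 differed by 2-fold or more with an interval excluding 1, beside 4.64% of such pairs over all genes. *Hes5* was 3.3-fold (2.13 to 5.21) lower in the *Pdgfra* gate of the 4OH-tamoxifen library and 2.06-fold (1.39 to 3.05) lower in its *Gpr17* gate, and these pairs were counted on both scales. The *Gpr17* difference was no longer counted at a mitochondrial limit of 10%, with cells of 2 classes kept, after thinning or with the mean of each cell's CPM, and it reversed in cells with exactly 1 lineage marker (log2 ratio 0.098). Of all genes 2.32% and 3.24% were lower in these gates. In astrocytes *Hes5* was 1.43-fold lower (1.19 to 1.71), under the fold set. The immediate-early genes *Fos*, *Jun* and *Egr1*, named after their values were seen, moved with *Hes5*: in the *Pdgfra* gate they were at 0.383, 0.406 and 0.321 of the untreated level, in the *Gpr17* gate at 0.308, 0.340 and 0.235, and in astrocytes at 1.16, 0.813 and 0.861. Their part in the result was not tested. Other Notch genes in the *Pdgfra* gate did not pass, with *Notch1* at 1.11 (0.782 to 1.58), *Hes1* at 0.943 (0.504 to 1.81) and *Dll1* at 0.516 (0.283 to 0.935). In the *Gpr17* gate *Dll1* was lower (0.466, 0.255 to 0.850).

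The other 4 counted differences were higher in the 4OH-tamoxifen library in CPM, but none of them was counted in UMIs per cell, where all 12 counted differences were lower in that library. Its cells held fewer UMIs, and per cell 17.6% of all gene and gate pairs were lower in it and 0.475% higher, so the per-cell scale favours lower calls. *Nkx6-2* in the *Gpr17* gate was at 44.9 against 19.98 CPM (2.25-fold, 1.41 to 3.75), where 2.09% of all genes were higher. Its microglia level moved too, at 25.7 against 10.0 CPM, and the difference was not counted at a gate of 1 UMI, with exactly 1 lineage marker or with the mean of each cell's CPM. *Myrf* in the same gate stood just under the fold, at 1.98 (1.51 to 2.63), and was counted as higher under several alternatives. *Tcf7l2* in the *Klk6* gate was 2.91-fold higher (1.10 to 9.67) on 27 against 5 UMIs (2.00% of all genes were higher), and was not counted under several alternatives, among them thinning and a gate of 3 UMIs. *Sox10* and *Myrf* in astrocytes were 2.49-fold (1.72 to 3.72) and 2.12-fold (1.15 to 4.15) higher, and both also had higher values in microglia, at 26.6 against 15.4 and 12 against 2.31 CPM. Of all genes 3.30% were higher in astrocytes. Neither astrocyte difference was counted at a gate of 3 UMIs. That of *Myrf* was also lost at a mitochondrial limit of 10%, at a gate of 1 UMI and with the mean of each cell's CPM. In endothelium *Sox10* was at 9.65 against 15.4 CPM, and in neurons *Myrf* was at 6.57 against 6.41. The part of free RNA in these values was not tested. No pair was counted in the *Enpp6*, *Mog*, *Opalin* or neuron gates, beside 6.00%, 5.79%, 3.40% and 4.25% of all genes in either direction. Per cell *Nkx2-2* and *Sox6* were counted as lower in the *Enpp6* gate and *Sox6* in the *Mog* gate. In CPM *Sox6* in the *Mog* gate was at 0.511 (0.401 to 0.653). It was counted as lower with a higher minimum of genes and at a mitochondrial limit of 10%. With exactly 1 lineage marker *Myrf* was counted as higher in the *Enpp6* gate. With the mean of each cell's CPM *Hes5* was higher in neurons, and *Nkx6-2* and *Myrf* in the *Pdgfra* gate. After thinning *Nkx6-2* was counted as higher in the *Enpp6* gate and *Olig2* as lower in neurons, and at a gate of 1 UMI *Nkx6-2* was higher in the *Enpp6* and *Mog* gates and *Hes5* lower in the *Mog* gate. At a gate of 3 UMIs *Tcf7l2* and *Sox6* were higher in the *Opalin* gate.

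**Figure D5:**
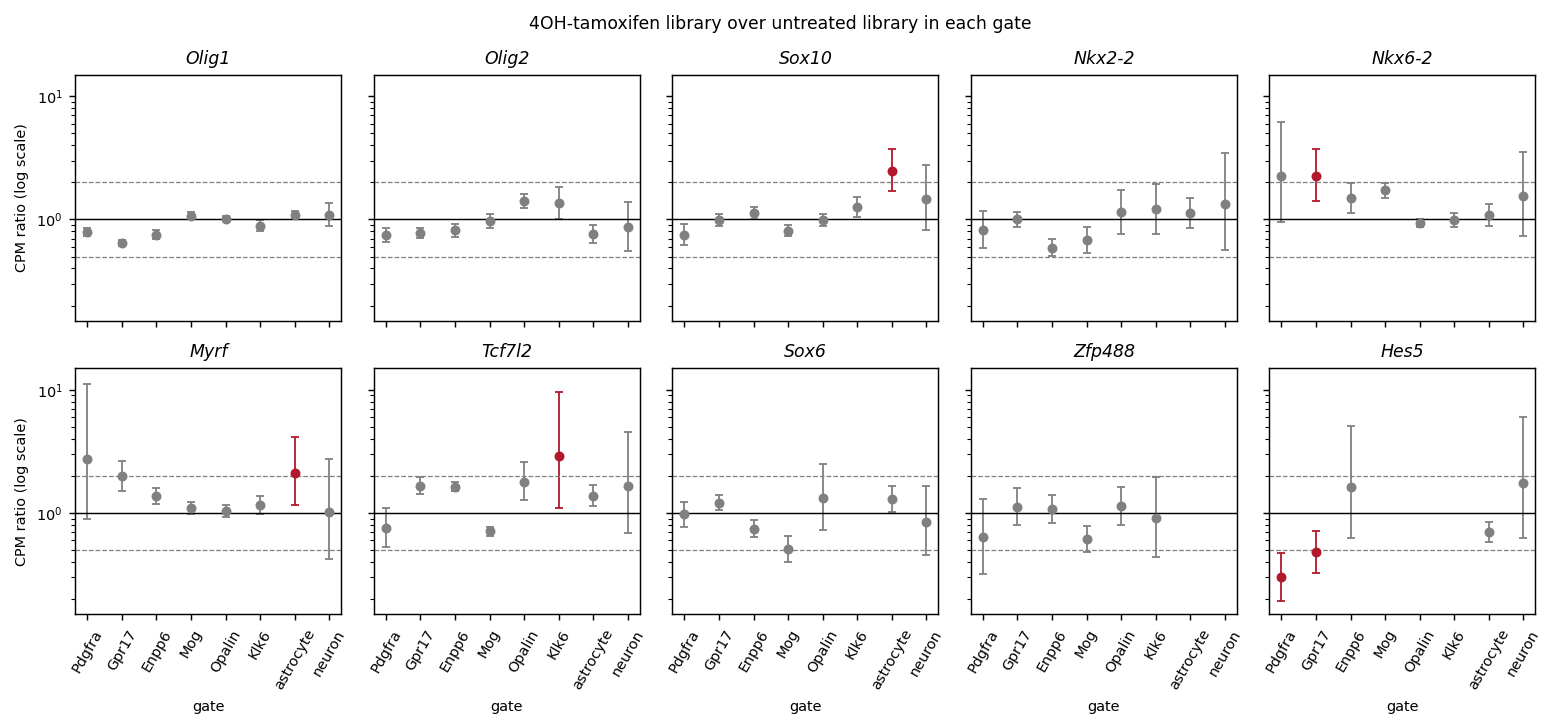
Ratio of the 4OH-tamoxifen to the untreated library (log axis) for each gene and gate with enough UMIs, with 95% counting intervals; dashed lines mark 0.5 and 2. The 6 counted pairs are in red, with *Hes5* in the *Pdgfra* gate (0.303) the lowest of them.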

How the data were processed

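Gene by barcode tables of UMI counts were deposited by the authors, who made them from 3′ reads with bcl2fastq 2.18.0.12 and Cell Ranger 2.2.0 on the mm10 (GRCm38) reference, 1 table per library, without doublet or quality filters. Counts were not corrected for free RNA, for gene length or for strand overlaps. The study's cell filters were applied with a current Scrublet, so the kept cells need not be those of the study, and its gene filter was not: doublets by Scrublet (scanpy 1.11.5, Python 3.11.15; 6 barcodes or 0.159% and 544 or 5.31% marked, so that doublets in the untreated library were hardly removed), at least 800 genes, at most 50 hemoglobin UMIs and at most 20% mitochondrial UMIs. They left 3339 of 3767 and 8558 of 10241 barcodes, with 3628 and 2411 median UMIs per cell. The tables held 18496942 and 34704167 UMIs. No gate took 7.49% and 15.6% of kept cells.

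Cells were gated at 2 UMIs of a marker, counts were summed by gate, and CPM were given exact 95% Poisson intervals, ratios exact conditional intervals and shares Clopper-Pearson intervals (SciPy 1.17.1). All of these cover counting error only. A change was counted at 2-fold or more in the same direction in both libraries with intervals excluding 1 and at least 20 UMIs in the compared gates of each library; between libraries the same fold and interval applied within a gate. The call was checked on simulated counts. Named genes are the 10 genes, gate markers, at most 4 genes in each direction per list that passed over the whole course, and the 3 most similar genes of each, among genes with 50 CPM or more in a gate of both libraries. Some genes that this rule names are not reported here. The genes and lists were chosen with earlier results of these data known. Alternatives covered doublets, filters, gates, thinning, scaling and fold. In the thinning alternative cells were cut to 2000 UMIs before gating, so the cells of each gate changed too. Shares at 2000 UMIs kept the main gates. UMIs per cell and subtraction of the microglia level were added after seeing the data. Gene positions are from the GENCODE annotation of GRCm38, and promoters from RefSeq (GRCm38.p6).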

Additional observations from a re-analysis of the deposited data

Results flagged for a closer look

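*Olig1* moved in opposite ways in CPM between the *Enpp6* and *Mog* gates of the libraries. The *Mog* level was 0.871 (0.799 to 0.950) of the *Enpp6* level in the untreated library and 1.24 (1.16 to 1.32) of it in the 4OH-tamoxifen library. The difference between the libraries was not tested, since each is a single library. Between libraries the *Olig1* level of the *Enpp6* gate was at 0.754 (0.694 to 0.819) with 4OH-tamoxifen and that of the *Mog* gate at 1.07 (1.00 to 1.15). In UMIs per cell the *Mog* over *Enpp6* ratio was above 1 in both, at 1.095 (1.005 to 1.194) and 1.90 (1.79 to 2.03). The make-up of the *Mog* gate also differed, with 67 of its untreated cells and 339 of its 4OH-tamoxifen cells under 2 UMIs of *Enpp6*. In both libraries these cells had the higher *Olig1* level (1.27-fold). The part of this make-up in the result was not tested.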

How the results depend on the processing

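Over 15 other ways of processing, 83 of 90 counts stayed within 1.5 times their value, and of 728 values of the 62 log2 ratios behind the counted changes 623 stayed within their interval, 101 moved further and 4 reversed. The 15 changes between neighbouring gates became 8 (3 of them shared) with cells that passed exactly 1 lineage marker, 23 at 1.5-fold and 6 at 3-fold, and of them 10 were still counted after thinning and 8 at a gate of 1 UMI. The 6 differences between libraries became 15 at 1.5-fold and 1 at 3-fold. The 4 genes lower in the oligodendrocyte gates became 2 at 3-fold. With the mean of each cell's CPM, 1 gene (*Sox6*) was higher in neurons than in microglia, against 0. Cells with exactly 1 lineage marker (3 and 1 in the *Opalin* gate, none in the *Klk6* gate) reversed the log2 ratios of *Hes5* between libraries in the *Gpr17* gate (0.098), of *Sox6* from the *Mog* to the *Opalin* gate in the untreated library (3.335), and of *Tcf7l2* over the whole course (-0.546 and -0.124). *Tcf7l2* was also no longer counted as higher at a gate of 3 UMIs, after thinning or at 3-fold, *Nkx2-2* no longer as lower at a gate of 1 UMI or with the mean of cells, and *Hes5* no longer as lower after thinning. The difference of *Hes5* between libraries in the *Gpr17* gate was lost under several alternatives, among them thinning, and that in the *Pdgfra* gate was the 1 left at 3-fold.

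In UMIs per cell, 5 genes were higher and 2 lower in the oligodendrocyte gates, 12 differences between libraries were counted (2 shared) and 2 genes were higher in neurons. The log2 ratios of *Nkx2-2* (0.114 and 0.485) and, in the 4OH-tamoxifen library, of *Olig2* (0.197) reversed, since the cells of the late gates hold more UMIs. No paired analysis was possible because each condition has 1 library, and leaving out a library left no comparison. Depth limits *Hes5*, *Zfp488*, *Myrf*, *Sox6*, *Tcf7l2* and *Nkx6-2*, each with fewer than 20 UMIs in at least 1 lineage gate of a library.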
